A study of Homo sapiens with 28 samples.

Results

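Untreated JeKo-1 cells were compared with untreated parental Z138 cells, both established human lines of mantle cell lymphoma, to show how the lines differ before any drug. The comparison used 7 of the 28 bead arrays of the series, chosen by their labels alone: JeKo-1 harvested at 0 h (n = 3), JeKo-1 control at 24 h (n = 2) and Z138 parental control at 24 h (n = 2). A gene was reported as different only where it differed in the same direction from both JeKo-1 controls, and 5216 of 9575 genes tested did so. The series holds 3 experiments in the 2 lines, built around ONC201, a small molecule that activates the mitochondrial protease ClpP. Cells grew in RPMI 1640 medium with serum, and the labels' protocols give DMSO, the solvent of the compounds, to untreated cultures in general, without saying whether the JeKo-1 wells harvested at 0 h received it. Per the series' design text, 1 stock culture of each line supplied all wells of an experiment, so the p-values below measure the spread between wells and not between independently grown cultures. No chip carried untreated wells of both lines. JeKo-1 at 0 h lay on chip 1, Z138 on chip 2 and JeKo-1 at 24 h on chip 3. Line and chip therefore cannot be told apart within either contrast. Harvest time also differs between JeKo-1 at 0 h and Z138 at 24 h, and the JeKo-1 groups come from different experiments.

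Mantle cell lymphoma is a cancer of mature B cells in which a translocation usually places CCND1, the gene of cyclin D1, beside an immunoglobulin heavy chain enhancer. Most cases also express SOX11, a transcription factor that normal B cells lack. A normal B cell that turns into a plasma cell loses factors such as BACH2 and gains PRDM1 and XBP1, which drive antibody secretion.

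The arrays detected 30.3% to 33.8% of 47231 probes each, where detected means a detection p under 0.01 against the negative control beads. Levels below are normalized log2 intensities of a gene's probe, on which an undetected probe reads about 4 to 5.5, and the level of one gene's probe cannot be set against another's. Wells of a group correlated at r of 0.992 to 0.994 (JeKo-1 at 0 h), 0.995 (JeKo-1 at 24 h) and 0.995 (Z138) over the genes tested, and JeKo-1 wells of different chips at 0.970 to 0.974. JeKo-1 and Z138 wells correlated at 0.863 to 0.874. B-cell markers MS4A1, CD79A, CD79B, CD37 and CD52 were detected on all 7 arrays, while CD22, another B-cell marker, was detected on 4 JeKo-1 arrays and 0 Z138 arrays. The T-cell genes CD3D and CD3E, the myeloid genes LYZ and CSF1R, the haemoglobin genes HBB and HBA1 and the epithelial genes EPCAM and KRT19 were detected on none, though the T-cell gene CD3G was detected on both Z138 arrays and CD2 on 2 JeKo-1 arrays. In bulk RNA, fewer cells with a transcript and less of it per cell cannot be told apart.

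Most of the genes tested were called apart between wells of the lines, where line and chip cannot be told apart. More genes were called so than between the JeKo-1 controls, except with chip as a block. At an adjusted p under 0.05 (limma, Benjamini-Hochberg), JeKo-1 at 0 h was higher than Z138 in 3507 genes and lower in 3451, which is 72.7% of those tested, and JeKo-1 at 24 h was higher in 3095 and lower in 3507, or 69%. The call held in the same direction against both for 54.5% of genes, of which 2529 were higher in JeKo-1 (26.4%) and 2687 lower (28.1%), while 254 genes (2.65%) were called in opposite directions. The spread between wells was small (root mean square SD of 0.177, 0.150 and 0.154 for JeKo-1 at 0 h, JeKo-1 at 24 h and Z138), so small differences pass that test. The JeKo-1 controls at 24 h and 0 h share the line but differ in chip, time and experiment, and perhaps in solvent. They were called apart in 4746 genes, or 49.6%. With line as the single term and chip as a random block, 2964 of the 9575 genes tested were called, fewer than those 4746. The text therefore turns on the genes that were also at least 2-fold apart from both JeKo-1 controls.

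There were 1667 genes at least 2-fold apart in the same direction, 17.4% of those tested, with 832 higher in JeKo-1 (8.69%) and 835 lower (8.72%). In 644 of the 1667 a group had no detected array, and the fitted difference still set the count. Between JeKo-1 at 24 h and JeKo-1 at 0 h, 441 genes (4.61%) were called and at least 2-fold apart. The median size of a difference, without its sign, was 0.54 log2 units for JeKo-1 at 0 h minus Z138 and 0.52 for JeKo-1 at 24 h minus Z138, against 0.28 between the JeKo-1 controls. At the 99th percentile the sizes were 3.99 and 3.89, against 1.48 between the JeKo-1 controls. Among the 1667 genes, 268 were at least 4-fold higher in JeKo-1 and 207 at least 4-fold lower, and 112 and 68 at least 8-fold. With median scaling in place of quantile normalization, the median over all genes moved to −0.18 (JeKo-1 at 0 h minus Z138) and −0.24 (JeKo-1 at 24 h minus Z138), and the 1802 genes then called at least 2-fold split into 667 higher and 1135 lower.

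**Figure D1:**
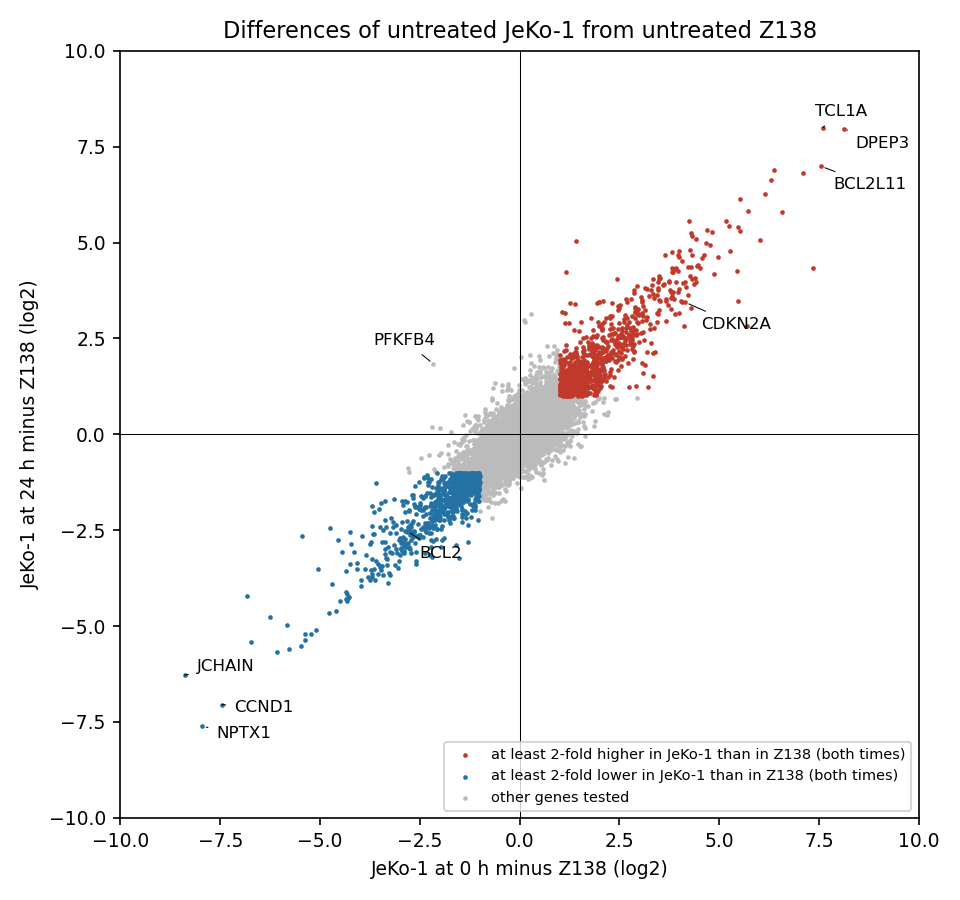
Each point is 1 of the 9575 genes tested, with the log2 difference of JeKo-1 at 0 h minus Z138 on the x axis and of JeKo-1 at 24 h minus Z138 on the y axis. The 832 red and 835 blue genes lie along the diagonal, and PFKFB4 is a gene whose direction depends on the JeKo-1 control.

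No JeKo-1 value of the 5 overlapped a Z138 value of the 2 in the 1667 genes, which follows from how they were chosen, and 62.8% of all genes tested had no such overlap. Over the whole series, including the 7 arrays that chose them, 1468 of the 1667 also kept the 20 JeKo-1 arrays, treated or not, apart from the 8 Z138 arrays. Of the 1468, 734 were higher and 734 lower in JeKo-1. They make up 15.3% of genes tested, but the share of all genes with such a separation was not counted. All 8 Z138 arrays lay on chip 2. A second named probe was tested for 398 of the genes: all other probes went the same way in 368, and none did in 19.

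Among genes detected on all 7 arrays, the 15 with the largest gaps on the JeKo-1 side were ATP6V0E2, TPM2, S100A10, PYHIN1, CD24, FERMT3, LHPP, IFITM2, FADS1, PRKCB, HENMT1, FCMR, PPP1R16B, SNAR-A1 and HCST. ATP6V0E2, a subunit of the proton pump that acidifies vesicles, had 10.99, 11.09 and 10.93 in JeKo-1 at 0 h and 10.97 and 10.92 in JeKo-1 at 24 h, against 5.62 and 5.46 in Z138. That put it 5.46 ± 0.09 (SE) above Z138 at 0 h and 5.40 ± 0.09 at 24 h, with adjusted p of 4.75e-22 and 4e-21. S100A10, the partner of annexin A2 at the plasma membrane, was 4.78 ± 0.10 and 4.92 ± 0.11 higher. IFITM2, which restricts virus entry, was 4.23 ± 0.13 and 4.36 ± 0.14 higher. FERMT3, the blood-cell kindlin that activates integrins, was 4.52 ± 0.08 and 4.33 ± 0.09 higher, and FADS1, a desaturase of polyunsaturated fatty acids, 3.84 ± 0.08 and 4.22 ± 0.09. Each of these genes kept the 5 JeKo-1 values within a narrow band far above both Z138 values.

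The 15 genes with the largest gaps on the Z138 side were LHX2, TUBB6, LY6E, NDFIP2, BAMBI, ELAPOR1, PMAIP1, CDC42EP4, SEC11C, ERBB2, SCARNA13, GADD45B, NIBAN1, ADM and CABLES1. LHX2, a LIM homeobox transcription factor, had 5.77, 5.96 and 5.57 in JeKo-1 at 0 h and 5.36 and 5.81 in JeKo-1 at 24 h, against 9.24 and 9.56 in Z138. BAMBI, a decoy receptor of the TGF-beta family, differed by −3.27 ± 0.11 at 0 h and −3.62 ± 0.12 at 24 h. ERBB2, the receptor tyrosine kinase HER2, differed by −2.90 ± 0.13 and −2.92 ± 0.14. For ADM, the peptide hormone adrenomedullin, the gap depended on the JeKo-1 control: the values were 6.31, 6.08 and 6.26 in JeKo-1 at 0 h and 7.61 and 7.54 in JeKo-1 at 24 h, against 10.42 and 10.47 in Z138. Its difference was −4.23 ± 0.12 at 0 h and −2.87 ± 0.13 at 24 h, so it remained at least 2-fold lower against both.

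Some genes were detected in one line only, and for these a fold change is a lower bound: the mean of the line that has signal over the lowest signal that counts as detected on the other line's arrays. Among genes called in the same direction against both JeKo-1 controls, 348 were detected on all 5 JeKo-1 arrays and neither Z138 array. Of these, 204 had a bound of at least 2-fold and 43 of at least 8-fold against both controls. In the other direction, 363 called genes were detected on both Z138 arrays and none of the 5 JeKo-1 arrays. Of those, 113 and 19 passed the same bounds. Genes detected in this way but not called were not counted. Across the whole series, 184 of the 348 were detected on all 20 JeKo-1 arrays and none of 8 Z138 arrays. Of the 363, 176 were detected on all 8 Z138 arrays and none of 20. Both counts include the 7 arrays that chose the genes. In untreated resistant Z138, on the same chip as the parental arrays, 294 of the 348 were also undetected on both arrays. Of the 363, 308 were detected on both. For none of these counts was the share over all genes tested taken.

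The 15 JeKo-1 genes with the largest bounds were DPEP3, TCL1A, BCL2L11, CTAG2, GTSF1, SSX4, CTCFL, MT1F, BCOR, GNG11, PTPRCAP, CASP4, EPDR1, CLDN23 and TSPAN33. TCL1A, a co-activator of the kinase AKT that is made by B cells before the plasma-cell stage, had 12.26, 12.29 and 12.22 in JeKo-1 at 0 h and 12.63 and 12.68 in JeKo-1 at 24 h, against 4.58 and 4.74 in Z138. It was at least 120-fold higher at 0 h and at least 158-fold higher at 24 h (adjusted p = 9.55e-23 and 3.55e-22). DPEP3, a testis dipeptidase, was at least 151-fold and 136-fold higher. BCOR, a transcriptional corepressor that partners BCL6, was at least 27.6-fold and 29.5-fold higher, and TSPAN33, a B-cell tetraspanin, at least 37.9-fold and 19.5-fold. PTPRCAP, which binds the phosphatase CD45, was not detected in parental Z138 but was detected on both arrays of untreated resistant Z138, and CASP4, an inflammatory caspase, was detected on 2 of the 8 Z138 arrays of the series.

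The 15 Z138 genes with the largest bounds were NPTX1, CCND1, PLD6, CUX2, MYBPH, SKAP1, UNC13C, AHNAK, SFRP5, WNT5B, LMO3, ALPK2, TIAM2, CACNG6 and MYOM2. CCND1 had 4.56, 4.42 and 4.67 in JeKo-1 at 0 h and 5.00 and 4.92 in JeKo-1 at 24 h, all undetected, against 12.00 and 12.01 in Z138. It was at least 90.5-fold lower in JeKo-1 at 0 h and at least 108-fold lower at 24 h (adjusted p = 4.34e-24 and 8.5e-23). The value comes from a single probe, whose place in the transcript is not given in the sources used here. Short CCND1 transcripts that lack most of the 3′ UTR are known in this lymphoma, and whether the probe lies in the part they lack was not tested. NPTX1, a secreted neuronal pentraxin, was at least 121-fold and 145-fold lower in JeKo-1, with 2 other probes going the same way. The list included genes better known from other tissues, among them MYBPH, a myosin-binding protein of muscle (at least 22.7-fold and 27.1-fold lower in JeKo-1), UNC13C, a priming factor of synaptic vesicles (at least 20.5-fold and 24.5-fold), and SFRP5, a secreted inhibitor of WNT ligands (at least 16.3-fold and 19.5-fold).

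The promoters of the first genes in each order that RefSeq's table holds are shown because these genes had signal in one line and none in the other. Each is 300 bases of GRCh38.p14, 250 before to 50 after the start, on the gene's strand, with CG dinucleotides in capitals, the bases at which promoter DNA can be methylated. DPEP3 (chr16:67980450-67980749, minus strand, 24 CG) and TCL1A (chr14:95714076-95714375, minus strand, 26 CG) were detected in JeKo-1 only. CUX2, a homeobox factor (chr12:111033915-111034214, plus strand, 42 CG), and MYBPH (chr1:203175777-203176076, minus strand, 5 CG) were detected in Z138 only.
DPEP3: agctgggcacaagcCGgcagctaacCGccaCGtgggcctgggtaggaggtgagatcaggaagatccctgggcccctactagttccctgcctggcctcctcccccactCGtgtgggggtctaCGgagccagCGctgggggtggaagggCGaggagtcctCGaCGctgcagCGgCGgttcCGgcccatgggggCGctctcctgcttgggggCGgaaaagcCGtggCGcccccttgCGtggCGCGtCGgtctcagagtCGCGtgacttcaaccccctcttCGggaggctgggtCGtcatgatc
TCL1A: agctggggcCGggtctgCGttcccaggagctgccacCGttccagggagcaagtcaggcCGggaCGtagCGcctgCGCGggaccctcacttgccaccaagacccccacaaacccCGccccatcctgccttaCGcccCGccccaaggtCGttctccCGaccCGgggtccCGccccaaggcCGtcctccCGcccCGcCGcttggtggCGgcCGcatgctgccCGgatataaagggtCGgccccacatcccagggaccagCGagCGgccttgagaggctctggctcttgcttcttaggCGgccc
CUX2: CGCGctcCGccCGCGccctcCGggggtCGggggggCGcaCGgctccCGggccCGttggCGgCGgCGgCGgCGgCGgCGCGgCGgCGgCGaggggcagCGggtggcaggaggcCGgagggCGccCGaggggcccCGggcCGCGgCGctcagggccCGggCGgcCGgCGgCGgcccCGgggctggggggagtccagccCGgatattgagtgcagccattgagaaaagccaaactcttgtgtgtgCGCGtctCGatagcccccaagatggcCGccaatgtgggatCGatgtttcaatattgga
MYBPH: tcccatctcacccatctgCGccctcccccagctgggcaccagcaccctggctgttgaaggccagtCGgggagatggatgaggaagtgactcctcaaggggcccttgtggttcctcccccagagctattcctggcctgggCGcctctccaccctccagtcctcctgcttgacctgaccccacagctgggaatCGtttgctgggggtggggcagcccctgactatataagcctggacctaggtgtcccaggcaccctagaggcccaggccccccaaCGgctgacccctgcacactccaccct
A CG reads the same on both strands. Over the 271 of 348 called JeKo-1-only genes with a promoter in the table, the median count of CG was 21 (quartiles 8 and 32). Over 272 of 363 called Z138-only genes it was 22 (quartiles 12 and 33). Over 7771 of the 9575 genes tested it was 26 (quartiles 19 and 34). Methylation was not measured here.

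**Figure D2:**
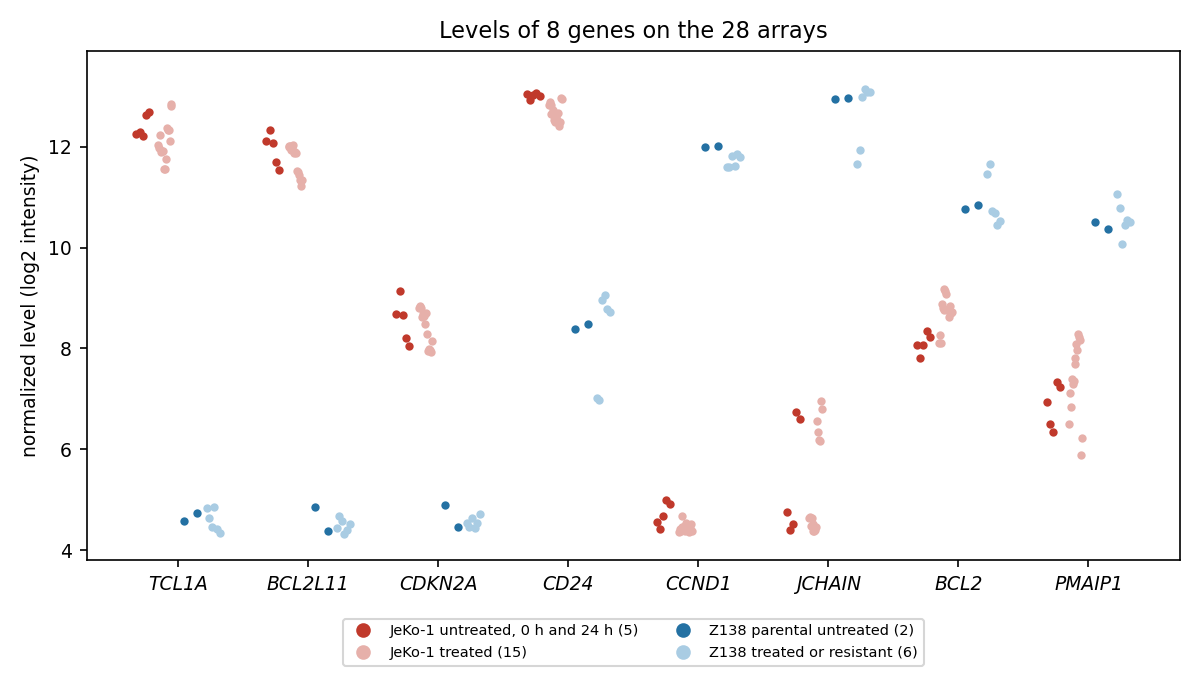
Normalized levels (log2 intensity) of 8 genes on the 28 arrays, with 1 point an array: untreated JeKo-1 (dark red), treated JeKo-1 (light red), untreated parental Z138 (dark blue) and treated or resistant Z138 (light blue). TCL1A, BCL2L11, CDKN2A and CD24 lie higher in JeKo-1 and CCND1, JCHAIN, BCL2 and PMAIP1 higher in Z138 on every array shown, with no overlap of the 20 JeKo-1 and 8 Z138 arrays.

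Surface antigens of B cells were higher in JeKo-1 more often than lower. Of 32 tested, 16 were higher and 7 lower against both JeKo-1 controls (13 and 7 under median scaling), and 11 and 3 at least 2-fold. Their median difference was 0.60 at 0 h and 0.37 at 24 h, where all genes tested had 0.00 and −0.06. The shares of all genes against which the counts of this and the next lists are read are 26.4% higher and 28.1% lower, and 8.69% and 8.72% at least 2-fold. CD24, a glycosylated membrane-anchored protein of early and naive B cells, had 13.04, 12.92 and 13.02 in JeKo-1 at 0 h and 13.07 and 13.01 in JeKo-1 at 24 h, against 8.38 and 8.48 in Z138. It was 4.56 ± 0.06 and 4.61 ± 0.07 higher (adjusted p = 1.39e-22 and 9.99e-22), and the lines did not come near each other. MME, the germinal centre and precursor antigen CD10, was undetected in Z138 and at least 6.98-fold (0 h) and 13.4-fold (24 h) higher in JeKo-1. CD72, a B-cell co-receptor, was 3.24 ± 0.09 and 3.61 ± 0.10 higher, and ROR1, a WNT5A receptor that malignant B cells carry, 2.10 ± 0.15 and 2.46 ± 0.16.

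The antigens at which antibodies against B-cell lymphomas are aimed did not move together. CD52 was 2.12 ± 0.12 and 1.47 ± 0.13 higher in JeKo-1. MS4A1, which encodes CD20, had 8.55, 8.09 and 8.28 in JeKo-1 at 0 h and 7.64 and 7.47 in JeKo-1 at 24 h, against 7.76 and 7.91 in Z138, and its differences of 0.47 and −0.28 were not called against both. CD79B, a signalling chain of the B-cell receptor, was 1.93 ± 0.08 and 1.71 ± 0.09 higher, with both of its other probes agreeing. CD79A, its partner, was 0.73 ± 0.09 and 0.25 ± 0.10 higher (adjusted p = 1.67e-07 and 0.0261), but neither of its 2 other probes was called that way, and its call was lost with chip as a block. FCER2, the low-affinity IgE receptor CD23, was undetected in JeKo-1 and at least 2.91-fold and 3.47-fold lower there. CD38 and TNFRSF17 are described with the plasma-cell genes.

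Plasma-cell markers were lower in JeKo-1: 10 of 14 were lower, none was higher, and 7 were at least 2-fold lower. The median differences were −1.26 at 0 h and −1.61 at 24 h, against 0.00 and −0.06 over all genes. JCHAIN, which joins secreted IgM and IgA into polymers, had 4.76, 4.41 and 4.53 in JeKo-1 at 0 h and 6.75 and 6.61 in JeKo-1 at 24 h, against 12.95 and 12.96 in Z138. It was undetected in JeKo-1 at 0 h, at least 175-fold below Z138, and detected in JeKo-1 at 24 h with a difference of −6.28 ± 0.12 (adjusted p = 1.16e-20). SDC1, the proteoglycan CD138 that marks plasma cells, had 5.96, 6.31 and 5.80 in JeKo-1 at 0 h and 6.63 and 6.45 in JeKo-1 at 24 h, against 9.25 and 8.97 in Z138.

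CD38, an ectoenzyme abundant on plasma cells, differed by −3.94 ± 0.10 and −2.65 ± 0.10, and TNFRSF17, the survival receptor BCMA, by −2.78 ± 0.10 and −1.96 ± 0.11. SEC11C, a catalytic subunit of the signal peptidase, differed by −3.11 ± 0.07 and −3.40 ± 0.08. PRDM1, the repressor Blimp-1, had 6.11, 6.15 and 5.32 in JeKo-1 at 0 h and 5.85 and 5.97 in JeKo-1 at 24 h, against 8.12 and 8.36 in Z138. XBP1, which expands the secretory pathway, was lower, with differences of −1.51 ± 0.08 and −1.52 ± 0.08. IRF4, required for plasma-cell formation, differed by −0.75 at 0 h and 0.03 at 24 h and was not called against both. SLAMF7 and MZB1, both strongly expressed by plasma cells, were not called against both either.

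**Figure D3:**
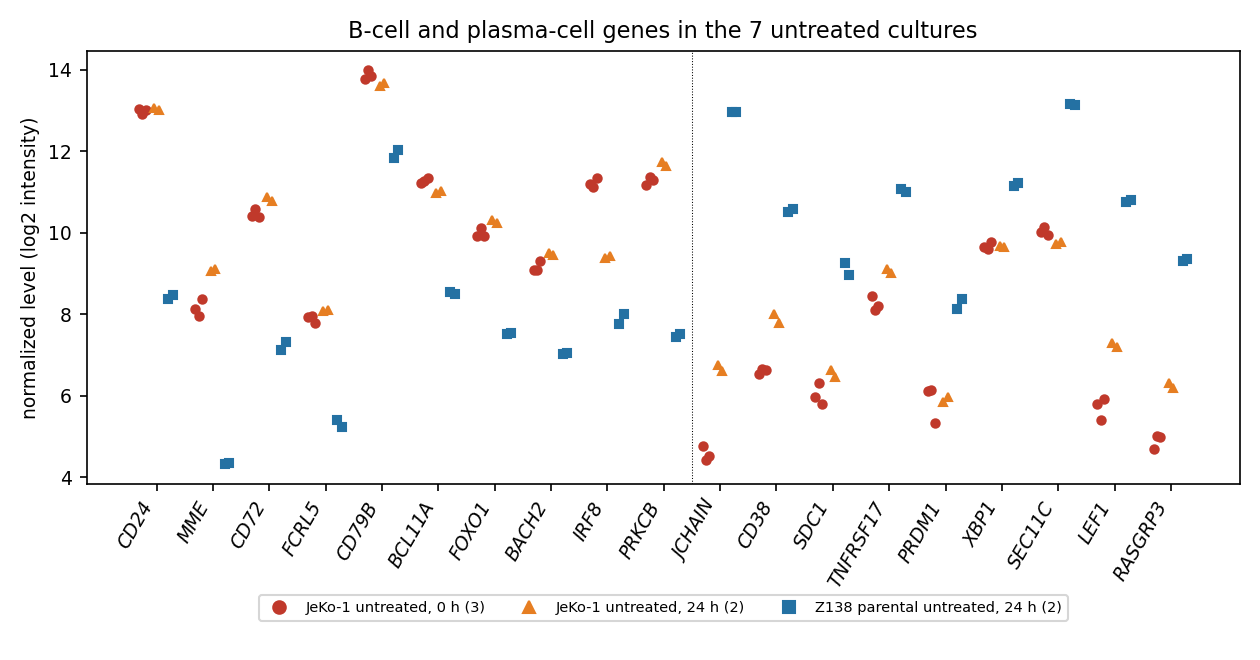
Normalized levels (log2 intensity) of 19 B-cell and plasma-cell genes on the 7 untreated arrays: JeKo-1 at 0 h (circles), JeKo-1 at 24 h (triangles) and Z138 at 24 h (squares). All JeKo-1 points lie above Z138 for the 10 genes left of the dotted line and below it for the 9 genes on the right. The genes were picked with their direction known, so this split follows from the choice. LEF1 and RASGRP3, on the right, are not from the list of plasma-cell markers. Not drawn are FCER2 and KLF2, lower in JeKo-1, and MS4A1, IRF4, SLAMF7 and MZB1, not called against both.

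Transcription factors of the B-cell lineage differed in both directions. Of 32 tested, 12 were higher and 8 lower, and 6 and 4 at least 2-fold. The median differences of 0.11 and 0.02 turned to −0.03 and −0.20 under median scaling. BACH2, which holds back PRDM1, was 2.13 ± 0.09 and 2.44 ± 0.10 higher in JeKo-1, and FOXO1, needed at several B-cell stages, 2.46 ± 0.09 and 2.74 ± 0.10. BCL11A, a zinc finger factor of early B cells, was 2.76 ± 0.09 and 2.49 ± 0.10 higher. IRF8 depended on the JeKo-1 control, with 11.19, 11.12 and 11.33 in JeKo-1 at 0 h and 9.38 and 9.43 in JeKo-1 at 24 h, against 7.75 and 8.0 in Z138. On the other side were PRDM1, XBP1, LEF1 and KLF2. LEF1, an effector of WNT signalling, had differences of −5.06 ± 0.12 and −3.52 ± 0.13, and KLF2, which controls B-cell trafficking, −1.05 ± 0.10 and −2.24 ± 0.11.

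In B-cell receptor signalling, 11 of 29 genes were higher in JeKo-1 and 7 lower, with 7 and 3 at least 2-fold. Median differences were 0.24 and 0.47, but 0.00 and 0.41 under median scaling and 0.16 and 0.04 with the mean of all probes. PRKCB, the kinase that carries the receptor's signal to NF-kB, had 11.17, 11.37 and 11.29 in JeKo-1 at 0 h and 11.74 and 11.64 in JeKo-1 at 24 h, against 7.44 and 7.51 in Z138, and all 4 of its other probes agreed. It was 3.81 ± 0.08 and 4.22 ± 0.08 higher (adjusted p = 2.55e-20 and 3.31e-20). ZAP70, a kinase of T cells that some B-cell malignancies express, was undetected in Z138 and at least 9.24-fold and 6.18-fold higher. PLCG2, the phospholipase below BTK, was 1.55 ± 0.09 and 1.74 ± 0.10 higher. BTK itself, the target of ibrutinib, was 0.69 ± 0.09 and 0.57 ± 0.10 higher, a call lost with chip as a block, and SYK was 1.39 ± 0.08 and 0.92 ± 0.09 higher. RASGRP3, which activates RAS, was undetected in JeKo-1 at 0 h and at least 14.2-fold lower, with a difference of −3.07 ± 0.12 at 24 h. FGR, a SRC-family kinase, was undetected in JeKo-1 and at least 4.08-fold and 4.87-fold lower.

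Genes that recur in mantle cell lymphoma, many of them cell-cycle genes, differed in both directions. Of 24 genes linked to this lymphoma, 5 were higher in JeKo-1 and 11 lower, and 5 and 7 at least 2-fold, with median differences of −0.60 and −0.67. Beside the absent CCND1 signal, JeKo-1 was higher in the other D cyclins. CCND2 was at least 1.86-fold and 2.30-fold higher, and CCND3 was 1.22 ± 0.07 and 1.07 ± 0.08 higher. CDKN2A, which encodes the inhibitors p16 and p14ARF, had 8.69, 9.13 and 8.66 in JeKo-1 at 0 h and 8.21 and 8.04 in JeKo-1 at 24 h, against 4.90 and 4.46 in Z138, where it was undetected on all 8 arrays of the line. It was at least 11.1-fold and 6.83-fold higher (adjusted p = 1.77e-16 and 2.67e-14). MTAP, its neighbour on chromosome 9, differed by 0.11 and 0.05 and was not called.

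CDK6 was undetected in JeKo-1 and detected in parental Z138, though not in untreated resistant Z138, at least 1.73-fold and 2.06-fold lower in JeKo-1. CDK4 was not called against both, with differences of 0.12 and −0.62. CDKN1B, the inhibitor p27, differed by −1.97 ± 0.12 and −1.81 ± 0.13, and NOTCH1, mutated in a share of cases, by −1.24 ± 0.14 and −1.11 ± 0.16. ATM, the DNA damage kinase often lost in this lymphoma, had 6.47, 6.17 and 6.20 in JeKo-1 at 0 h and 6.37 and 6.38 in JeKo-1 at 24 h, against 4.33 and 4.35 in Z138, where it was undetected. SOX11 had 8.98, 9.04 and 8.96 in JeKo-1 at 0 h and 9.53 and 9.64 in JeKo-1 at 24 h, against 9.5 and 9.71 in Z138. Its difference was −0.61 ± 0.09 at 0 h and −0.02 ± 0.09 at 24 h (adjusted p = 1.78e-06 and 0.859), so the call rests on 1 control.

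Genes of the BCL2 family, which set the threshold for mitochondrial cell death, differed in both directions. Of 15 tested, 5 were higher in JeKo-1 and 6 lower, with 1 and 5 at least 2-fold (3 were higher under median scaling), and 2 had opposite calls against the JeKo-1 controls. The medians of 0.02 and 0.06 turned to −0.10 and −0.11 under median scaling. BCL2L11, the death activator BIM, had 12.11, 12.33 and 12.08 in JeKo-1 at 0 h and 11.69 and 11.54 in JeKo-1 at 24 h, against 4.86 and 4.39 in Z138. It was undetected on all 8 Z138 arrays, at least 113-fold and 76.8-fold higher in JeKo-1 (adjusted p = 1.8e-22 and 4e-21), and its other probe agreed. BCL2, the survival protein that BIM binds, had 8.07, 7.82 and 8.06 in JeKo-1 at 0 h and 8.34 and 8.22 in JeKo-1 at 24 h, against 10.76 and 10.84 in Z138. That is a difference of −2.82 ± 0.09 and −2.52 ± 0.10 (adjusted p = 4.39e-17 and 1.82e-15), with 1 of 2 other probes agreeing.

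The pro-death member PMAIP1, known as NOXA, had 6.93, 6.51 and 6.34 in JeKo-1 at 0 h and 7.34 and 7.23 in JeKo-1 at 24 h, against 10.50 and 10.36 in Z138. BAX, an effector of the mitochondrial pathway, differed by −1.19 ± 0.12 and −1.23 ± 0.14, and the pro-death members BIK and BMF were also at least 2-fold lower in JeKo-1. MCL1, the survival protein that NOXA binds, was 0.41 ± 0.09 and 1.01 ± 0.10 higher, though its other probe was not called that way and the call was lost with chip as a block. The genes of BIM and NOXA thus differed in opposite directions.

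CLPP, CLPX and TNFRSF10B, genes close to the known action of ONC201, differed between the lines by less than 1 log2 unit. CLPP, the protease that the drug activates, had 10.35, 10.55 and 10.26 in JeKo-1 at 0 h and 10.51 and 10.41 in JeKo-1 at 24 h, against 9.89 and 9.98 in Z138. It was 0.46 ± 0.10 and 0.53 ± 0.10 higher (adjusted p = 0.000236 and 0.000141), and the call was lost with chip as a block. CLPX, the unfoldase that feeds it, differed by −0.69 ± 0.08 and −0.53 ± 0.09. Of 24 mitochondrial proteases and chaperones, 4 were higher and 10 lower, but only PMPCA and SPG7 were at least 2-fold higher and IMMP2L, an inner membrane peptidase (−2.36 ± 0.09 and −1.62 ± 0.10), at least 2-fold lower. TNFRSF10B, the TRAIL receptor DR5, had 8.45, 8.49 and 8.45 in JeKo-1 at 0 h and 8.42 and 8.58 in JeKo-1 at 24 h, against 8.68 and 8.79 in Z138, and was not called against both (adjusted p = 0.0224 and 0.0668). TNFRSF10A, the receptor DR4, differed by −1.45 ± 0.19 and −1.97 ± 0.21. Of 9 death receptor genes tested, 3 were higher and 3 lower (5 lower with the mean of all probes).

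The integrated stress response, the programme that ATF4 runs when eIF2 is phosphorylated, was mostly lower in JeKo-1. Of 30 genes, 17 were lower and 5 higher (3 higher under median scaling), with 6 and 2 at least 2-fold, and the medians were −0.71 at 0 h and −0.31 at 24 h. ATF4 differed by −0.69 ± 0.07 and −0.62 ± 0.07. VLDLR, a lipoprotein receptor, was undetected in JeKo-1 at 0 h and at least 13.2-fold lower, and had a difference of −3.58 ± 0.10 at 24 h. ATF5 (−1.96 and −1.16), NARS1 (−1.52 and −1.39), XPOT (−1.51 and −1.43), PPP1R15A (−1.55 and −1.34) and PCK2 (−1.71 and −1.02) were the others at least 2-fold lower, and the call of XPOT was lost with chip as a block. DDIT3, the stress factor CHOP, went the other way, 1.00 ± 0.10 and 1.03 ± 0.11 higher, as did STC2, a secreted glycoprotein, at least 1.62-fold and 6.52-fold. Of this list, 6 genes differed by at least 2-fold between the JeKo-1 controls themselves, and CHAC1 and DDIT4 had opposite calls. Of 15 genes for eIF2, its kinases and its phosphatase, 3 were higher (1 under median scaling) and 6 lower, with DNAJC3 and PPP1R15A at least 2-fold lower.

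Interferon-induced genes leaned towards JeKo-1, with 14 of 27 higher and 3 lower, 5 and 2 at least 2-fold, and medians of 0.53 and 0.41 (0.19 at 24 h under median scaling). MX2, a block to retroviruses, was 2.42 ± 0.08 and 2.32 ± 0.08 higher, and IFI16, a DNA sensor, 1.81 ± 0.12 and 1.65 ± 0.13. IFITM2 was described above, and PARP9 and IFI35 were the other 2. LY6E, a surface protein that blocks coronavirus entry, had 6.38, 6.66 and 6.57 in JeKo-1 at 0 h and 6.50 and 6.58 in JeKo-1 at 24 h, against 10.05 and 9.92 in Z138. OASL was detected in Z138 only, at least 1.06-fold and 1.27-fold lower in JeKo-1.

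By calls of any size, genes of antigen presentation were lower in JeKo-1 more often than higher. In MHC class I, 3 of 18 genes were higher and 8 lower (medians −0.32 and −0.40), and 2 and 12 under median scaling (medians −0.48 and −0.57). At least 2-fold, 0 were higher and 2 lower, or 11.1% of the genes, against 17.4% of all genes tested. B2M, the light chain, differed by −0.40 ± 0.09 and −0.35 ± 0.10, a call lost with chip as a block, and ERAP2, a peptide trimmer, by −1.70 ± 0.12 and −1.67 ± 0.13. In MHC class II, 6 of 17 were higher and 9 lower (medians −0.32 and −0.28), and 3 and 9 under median scaling. At least 2-fold, 1 was higher and 3 lower, or 23.5%. HLA-DMB, which loads peptides, was 2.10 ± 0.08 and 1.91 ± 0.09 higher in JeKo-1, while IFI30, a thiol reductase of the same pathway, differed by −2.25 ± 0.15 and −3.15 ± 0.16. HLA-DRA had differences of −0.11 and −0.08 and was not called. Its other probe, also detected in both lines, had differences of 0.49 and 0.5, so the probes disagree. The probe for HLA-DRB1 read 5.18, 4.53 and 5.46 in JeKo-1 at 0 h and 5.86 and 5.96 in JeKo-1 at 24 h, against 10.79 and 10.98 in Z138. HLA genes differ between people in sequence, and whether a probe matches both lines equally was not tested, so these values are uncertain.

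NF-kB subunits and their induced genes were lower more often than higher in JeKo-1, 11 against 6 of 23, with medians of −0.38 and −0.09. NFKB2, the precursor of p52, had 6.41, 6.29 and 6.43 in JeKo-1 at 0 h and 7.55 and 7.46 in JeKo-1 at 24 h, against 9.17 and 9.32 in Z138. TNFAIP3, the brake A20, differed by −1.55 ± 0.12 and −1.21 ± 0.13. NFKBIZ, an atypical inhibitor (1.97 ± 0.11 and 1.14 ± 0.12), and CD83, an activation marker (1.27 ± 0.09 and 2.04 ± 0.10), were higher. LTB and IL10 were detected in Z138 only, at least 1.66-fold and 1.99-fold (LTB) and 1.07-fold and 1.27-fold (IL10) lower in JeKo-1.

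Homing and adhesion genes differed in both directions, with 6 of 22 higher, 10 lower and medians of −0.56 and −0.53. CXCR5, the receptor that guides B cells into follicles, had 9.29, 9.23 and 9.17 in JeKo-1 at 0 h and 8.98 and 8.85 in JeKo-1 at 24 h, against 5.19 and 4.95 in Z138. It was at least 14.7-fold and 11.8-fold higher, with its other probe agreeing, though it was detected on both arrays of untreated resistant Z138. CD44, the hyaluronan receptor, was at least 3.51-fold and 2.36-fold higher. ITGB2 and ITGB7, integrin beta chains, went opposite ways, 1.84 ± 0.10 and 2.71 ± 0.11 for ITGB2 and −2.66 ± 0.12 and −2.25 ± 0.13 for ITGB7. CXCR4, the marrow homing receptor, had 11.68, 11.40 and 11.68 in JeKo-1 at 0 h and 10.70 and 10.63 in JeKo-1 at 24 h, against 11.11 and 11.01 in Z138, so on this probe its direction depended on the control. Another detected probe of CXCR4 had differences of −0.60 and −1.28, so the probes disagree.

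Genes of growth and the cell cycle held few differences of at least 2-fold. In the MYC network 1 of 24 genes was higher and 5 lower, but 1 and 11 under median scaling (medians −0.11 and −0.23, and −0.34 and −0.46 under that scaling), and MYC itself differed by −0.67 ± 0.07 and −0.84 ± 0.08. MXD4, which opposes MYC, was 1.19 ± 0.13 and 2.02 ± 0.14 higher. In DNA replication 6 of 32 were higher and 11 lower, with GINS2 (1.64 ± 0.07 and 1.25 ± 0.08) at least 2-fold higher and TYMS, ORC6 and ORC1 at least 2-fold lower. In mitosis 8 of 39 were higher and 17 lower (4 and 18 under median scaling), where 28.1% of all genes were lower, and BUB1 (−2.10 ± 0.09 and −2.0 ± 0.10), CENPF and ESPL1 were at least 2-fold lower. The shares at least 2-fold apart were 4.17% for the MYC network, 12.5% for replication and 7.69% for mitosis, against 17.4% of all genes.

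Genes of sterol and fatty acid synthesis were higher in JeKo-1 more often than lower. Of 24 tested, 11 were higher and 3 lower, 8 and 1 at least 2-fold, with medians of 0.58 and 0.47. HMGCS1, which makes HMG-CoA, had 10.66, 10.63 and 10.67 in JeKo-1 at 0 h and 10.79 and 10.87 in JeKo-1 at 24 h, against 8.67 and 8.52 in Z138. MVD of the mevalonate pathway was 1.91 ± 0.11 and 2.24 ± 0.12 higher, and the later enzymes SQLE (1.49 ± 0.11 and 1.75 ± 0.12) and SC5D (1.42 ± 0.14 and 1.35 ± 0.15) followed. SREBF1, a factor that induces lipid synthesis genes, was the list's member at least 2-fold lower. It differed by −1.20 ± 0.12 and −1.5 ± 0.14, opposite to the enzymes named here.

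Other metabolic lists held few large differences. In oxidative phosphorylation 14 of 38 genes were higher and 9 lower, a balance that turned to 5 and 8 under median scaling, and SDHD (1.54 ± 0.10 and 1.59 ± 0.10) and NDUFV2 (−1.53 ± 0.09 and −1.37 ± 0.10) were the 2 at least 2-fold apart. In glycolysis and hypoxia 8 of 31 were higher and 6 lower, and 6 differed by at least 2-fold between the JeKo-1 controls. HK1, which traps glucose in the cell, was 1.31 ± 0.07 and 2.01 ± 0.08 higher. In glutathione and redox genes 11 of 29 were higher and 10 lower, and GSTA4 and GPX7 were the members at least 2-fold higher and lower.

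Several cancer-testis antigens, germline genes that tumours can switch on, had signal in JeKo-1 and none detected in Z138. Of 44 on the array only 12 passed the detection filter, which a gene could pass through 1 line alone, so no share is read from them. Of the 12, 8 were called higher in JeKo-1, 1 lower and 1 in opposite directions against the JeKo-1 controls. CTAG2, a relative of NY-ESO-1, had 11.57, 11.84 and 11.54 in JeKo-1 at 0 h and 11.35 and 11.40 in JeKo-1 at 24 h, against 4.51 and 4.6 in Z138. It was at least 78.8-fold and 65.1-fold higher, SSX4 at least 44.3-fold and 62.5-fold, CTAG1A at least 11.9-fold and 11.4-fold, PRAME at least 10.1-fold and 8.93-fold, and DDX43 at least 4.95-fold and 7.26-fold. CTAG1A, CTAG2 and the SSX genes belong to families of near-identical copies, so which copy gave the signal is uncertain. GTSF1, a partner of the piRNA pathway, and CTCFL, the germline paralogue of CTCF, are not in the list but were likewise undetected in Z138. They were at least 53-fold and 66.7-fold (GTSF1) and 34.8-fold and 38.2-fold (CTCFL) higher in JeKo-1. Both were taken from the genes with the largest bounds in JeKo-1, and the genes detected in Z138 only were not searched for germline genes. MAGEA3, MAGEA4 and MAGEA1 were detected on none of the 7 arrays.

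Markers of other cell types were few, and their part in the results above was not tested. Of 26 T-cell and NK-cell markers on the array, 4 to 6 were detected per JeKo-1 array and 5 per Z138 array, and their summed intensity was 1826 to 2058 in JeKo-1 at 0 h and 1978 to 1987 in JeKo-1 at 24 h, against 1166 to 1173 in Z138. ZAP70 and CD247, a signalling chain of the T-cell receptor (2.90 ± 0.08 and 3.18 ± 0.09 higher), were the members at least 2-fold higher in JeKo-1, and CD3G and PRF1 were detected in Z138 only. Of 17 myeloid markers, whose sums were 566.9 to 590.6 in JeKo-1 at 0 h and 615.1 to 621.2 in JeKo-1 at 24 h, against 478.6 to 503.6 in Z138, CEBPA and TYROBP were higher. Of 19 epithelial and fibroblast markers, COL1A1 and ACTA2 were lower in JeKo-1, with sums of 456.1 to 474 in JeKo-1 at 0 h and 489 to 508.7 in JeKo-1 at 24 h, against 682.1 to 695.2 in Z138. The 41 B-cell antigens summed to 56000 to 57730 in JeKo-1 at 0 h and 55000 to 55630 in JeKo-1 at 24 h, against 36350 to 37280 in Z138.

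**Figure D4:**
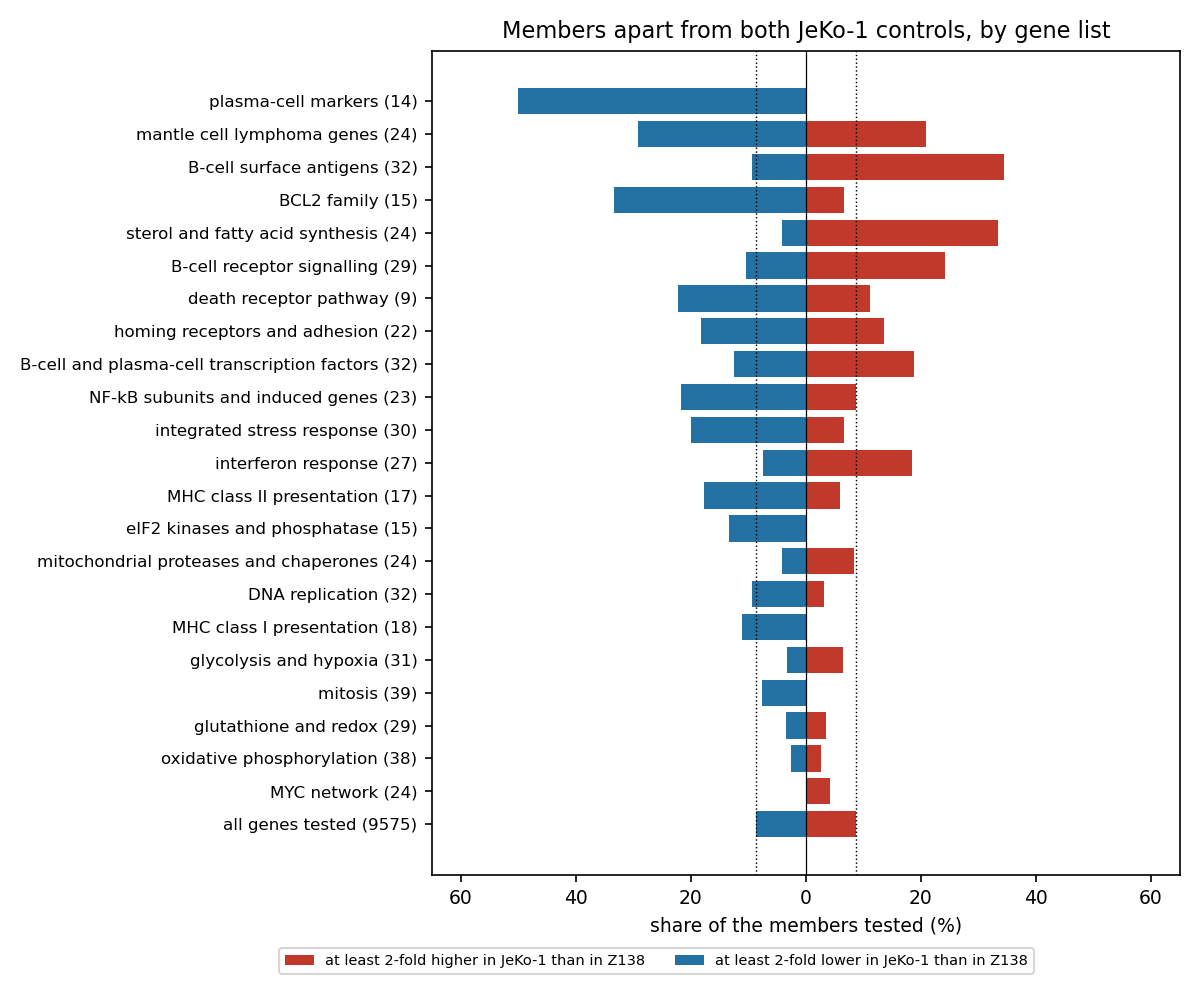
Share of the tested members of each list drawn (number in brackets) at least 2-fold higher in JeKo-1 than in Z138 (red, to the right) or lower (blue, to the left) against both JeKo-1 controls, in percent. Dotted lines mark the 8.69% and 8.72% over all genes tested. The longest bar drawn is that of plasma-cell markers, 7 of 14 of which were at least 2-fold lower in JeKo-1.

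Genes at least 2-fold apart were not spread evenly over the chromosomes. The genes tested were put in RefSeq's order, and the median difference was taken over every run of 20 neighbours. Over 9125 such runs, with the smaller of the medians against both controls and 0 where their signs differed, the middle value was 0.00 and the 1st and 99th percentiles were −0.84 and 0.75. The runs named here were chosen after their values were seen and carry no test, and a gene's place in the order is RefSeq's, not that of the lines' own chromosomes.

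On chromosome 18, 33.9% of 118 genes tested were at least 2-fold lower in JeKo-1 and 7.63% higher, and 78 were called lower and 19 higher. Its median differences were −0.85 and −0.83, while JeKo-1 at 24 h minus JeKo-1 at 0 h had −0.01. The lowest run of all, from MBD2 to TMX3, had medians of −1.54 and −1.57 with 15 of its 20 genes at least 2-fold lower. It holds BCL2, PMAIP1, SEC11C, NARS1 and ALPK2, which were named above without regard to their place. BCL2 and PMAIP1 are both in the list of the BCL2 family. Another run on this chromosome, from PSMG2 to SS18, had medians of −1.38 and −1.35 with 19 of 20 genes called lower, CABLES1 and the cholesterol transporter NPC1 (−1.59 and −1.78) among them.

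On chromosome 11 the balance was the other way, with 19.4% of 578 genes at least 2-fold higher in JeKo-1 and 3.29% lower, 303 called higher and 52 lower, and medians of 0.52 and 0.45. The runs from MRE11 to ALKBH8 (medians 1.43 and 1.44) and from CUL5 to ZW10 (medians 1.46 and 1.43), which follow each other closely, each had 15 of 20 genes at least 2-fold higher and 18 called higher. They hold ATM, BIRC2, CASP4, CASP1 (2.90 and 3.19), SDHD and POU2AF1, the B-cell coactivator (1.03 and 1.24).

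A run near the start of chromosome 9, from VLDLR to PLIN2, had medians of −1.73 and −1.37 with 13 genes at least 2-fold lower and none higher, among them the kinase JAK2 (−1.66 and −1.65) and UHRF2 (−1.90 and −2.23). On chromosome 6, the run from KCTD20 to FRS3 had medians of 1.53 and 1.31 with 13 genes at least 2-fold higher, among them the kinase PIM1 (2.05 and 1.27). Smaller medians of the same sign against both controls were found on chromosome 12 from CCDC91 to ANO6 (−1.18 and −1.11), chromosome 16 from SLX4 to ALG1 (−1.07 and −1.10) and chromosome 22 from IL17RA to UFD1 (0.94 and 0.90). In the runs named, the median of JeKo-1 at 24 h minus JeKo-1 at 0 h lay between −0.09 and 0.22.

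**Figure D5:**
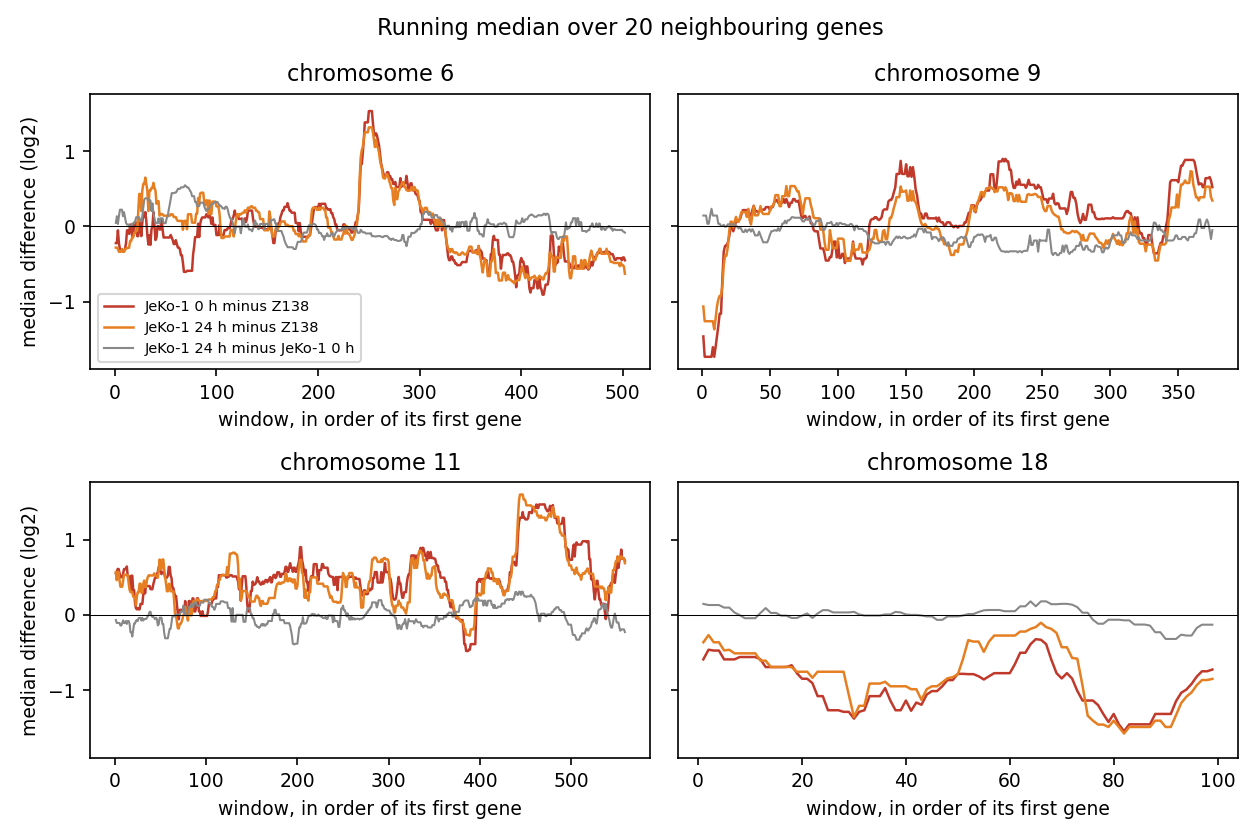
Running median of the log2 difference over 20 neighbouring genes, plotted by the order of each run's first gene on chromosomes 6, 9, 11 and 18: JeKo-1 at 0 h minus Z138 (red), JeKo-1 at 24 h minus Z138 (orange) and JeKo-1 at 24 h minus JeKo-1 at 0 h (grey). The red and orange lines leave 0 together in runs with medians of 1.53 and 1.31 (chromosome 6) and −1.73 and −1.37 (chromosome 9). The grey line stays near 0 there. In the runs named on chromosomes 11 and 18 the red and orange medians also lie close together. In some other runs the lines part, as in a run on chromosome 6 with medians of −0.60 (red), 0.07 (orange) and 0.53 (grey).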

How the data were processed

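RNA of 7 untreated cultures was analysed beside the other arrays of the 28. Of 3 deposited tables, 1 gives each probe's mean bead signal as an uncorrected linear intensity together with a detection p-value, per its file header. In the table named as background-corrected the authors had subtracted background from the intensity. The remaining one holds normalized intensity values of 38220 probes, and how the authors normalized them is not given in the sources used here. Per the submitters' processing notes, GenomeStudio was the reading software.

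The uncorrected signals were passed through neqc of limma 3.58.1 (R 4.3.3), which corrects background by a normal-exponential model, adds 16, takes log2 and quantile-normalizes all 28 arrays. Its background parameters came from the detection p-values, which step as with 770 negative controls. Of 47231 probes, 27004 had 1 gene symbol in the platform annotation, 4 several and 20223 none, and 26970 of the symbols were updated through RefSeq. Probes with a detection p under 0.01 on at least 2 of the 7 arrays were kept (12336), and each gene was represented by the probe brightest on average, which left 9575 of 18811 genes. The log2 values were fitted with lmFit and eBayes over 12 groups and 28 arrays (16 residual degrees of freedom), and p-values were adjusted by Benjamini-Hochberg over all genes tested. Calls needed an adjusted p under 0.05 against both JeKo-1 controls with the same sign, and counted as at least 2-fold at a log2 difference of 1 or more in both. These counts used fitted differences throughout, also where a group had no detected array. For single genes of that kind a bound was printed in place of the fold. A gene counted as at least 2-fold apart can therefore have a printed bound under 2-fold.

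The test was tried on simulated arrays with 200 changed genes, of which all 200 were called and 1 of 9375 unchanged genes was. The simulation held no chip effect, so that rate does not cover differences between chips. Every changed gene was given a difference far above the spread between wells, so finding all 200 was all but fixed beforehand. It does not show how often smaller differences are found, and far more genes were called in the data than were changed here. Genes were named by rule: the 15 largest differences in each direction among genes detected on all 7 arrays, the 15 largest bounds in each direction, a fixed panel, and up to 5 members a direction of each of 29 lists; genes named for their place on a chromosome were chosen after their values were seen. The members and lists were chosen with earlier results of these data known. Some of the genes and lists are not reported here. Replicate numbers do not pair the samples (correlation of deviations −0.027, −0.044 and −0.036). Figures were drawn with matplotlib 3.10.9 (Python 3.11.15). With arrays, the number of wells limits precision.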

Additional observations from a re-analysis of the deposited data

Results flagged for a closer look

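There were 254 genes called in opposite directions against the JeKo-1 controls, 2.65% of those tested, and each was also called between JeKo-1 at 24 h and JeKo-1 at 0 h. In PFKFB4, an enzyme that sets the rate of glycolysis, the levels were 5.23, 5.05 and 4.93 in JeKo-1 at 0 h, where it was undetected, and 9.02 and 9.11 in JeKo-1 at 24 h, against 7.05 and 7.41 in Z138, and the JeKo-1 controls differed by 3.99 ± 0.33 (24 h minus 0 h, log2). For STK36, a kinase of the hedgehog pathway, JeKo-1 at 24 h minus 0 h was −1.59 ± 0.10, for ENTPD1, the ectonucleotidase CD39, −1.89 ± 0.15, for PLEKHN1 −1.66 ± 0.16, and for ADAP1, an ARF GTPase-activating protein, 1.61 ± 0.16. These 2 JeKo-1 groups differ in chip, time and experiment, and perhaps in solvent, which cannot be told apart.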

How the results depend on the processing

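The count of genes at least 2-fold apart from both JeKo-1 controls was 1667, and 1107 on uncorrected quantile-normalized signals, 1110 with an offset of 50 and 914 for genes detected on all 7 arrays; the first 2 leave a larger constant in each signal and the last tests fewer genes. It was 1244 on the background-subtracted table, 1728 on the authors' values, 1668 without a filter, 1642 with the mean of all probes and 1413 with bounds in place of fitted differences, an alternative chosen after seeing the data. Median scaling gave 1802 (667 higher, 1135 lower in JeKo-1), against 832 and 835. The 7 arrays alone gave 1667, and 4767 calls of any size in place of 5216. With the replicate number as a block it was 1673; the numbers pair no samples, and the block moved no count by over 1.5 times. With line as the single term and chip as a random block (correlation 0.633), calls of any size fell to 2964, of which 2014 were at least 2-fold and 1644 of those were among the 1667. Leaving out 1 array at a time gave 4669 to 5182 calls against both, 1647 to 1685 at least 2-fold, 6276 to 6942 at 0 h, 5933 to 6666 at 24 h and 3587 to 4742 between the JeKo-1 controls. Over all alternatives, named genes stayed on the same side of the threshold in 3350 cases, lost the call in 15 and gained it in 3. Genes called in the main run reversed in 0 cases. For named genes not called there, direction was not checked. B2M, BTK, CD79A, CLPP, MCL1 and XPOT lost it with chip as a block; the cause was not tested.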
